A study of Mus musculus with 4 samples.

Results

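Transcripts of 9 genes of the JAK-STAT pathway were examined: the transcription factors Stat2, Stat3, Stat4, Stat5a, Stat5b and Stat6 and the kinases Jak1, Jak2 and Jak3. The 9 were taken by gene symbol from count tables of 31748 symbols, and all 9 were among the 12752 genes that passed the filter on low counts. The 4 RNA-seq libraries, 2 per genotype, were labelled as CD4+ T cells purified by magnetic positive selection from spleens of mice aged 8 weeks. Both genotypes, TEaWT (here WT) and TEaMthfd2 KO (here KO), carry TEa in their name, a T cell receptor transgene whose cells recognise a BALB/c class II peptide presented by the C57BL/6 class II molecule. All cells were kept for 3 days with antigen-presenting cells from spleens of F1 (BALB/c x C57BL/6) mice, also aged 8 weeks, that had been exposed to mitomycin, which stops their division. The labels do not state which part of Mthfd2 is deleted or in which cells, nor whether the libraries of a genotype are from separate animals. The p-values then cover only how far these libraries scatter, and that scatter may be technical.

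JAK kinases sit on the inner side of cytokine receptors and are switched on when a cytokine joins the receptor chains. They phosphorylate the receptor and then STAT proteins, which pair, enter the nucleus and bind DNA. In T cells Jak1 and Jak3 serve the receptors that share the common gamma chain, Jak2 serves the receptors of interleukin-12 and interferon gamma, and each STAT answers to its own group of cytokines.

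Total counts ranged from 14191401 to 15955863 per library. Mthfd2 itself stood at 280 and 280 CPM in WT and at 222 and 252 CPM in KO libraries (log2 fold change -0.24 ± 0.14 (SE), edgeR adjusted p = 0.324). Since the deleted part is unknown, this level is no check of the deletion, and the genotype rests on the labels. CPM are counts scaled to a common library total, and RPKM are CPM per kilobase of merged exons. The level of Cd8a was between 3.43 and 4.43 times that of Cd4 in RPKM in the 4 libraries, and so the label of CD4+ cells does not match these markers. The libraries also held B cell, class II, erythroid and myeloid transcripts. Sums of the B cell, class II and erythroid markers were lower in both KO libraries than in both WT libraries. The myeloid sums lay close together apart from WT replicate 1. Summed CPM of 8 B cell markers was 1191 and 721 in WT and 428 and 393 in KO libraries, with all 8 below both WT libraries in both KO libraries and 3 of 8 called lower. Summed CPM of 7 MHC class II markers was 3900 and 2325 in WT and 1232 and 1068 in KO libraries, with 6 of 7 called lower. Summed CPM of 4 erythroid markers was 124 and 32.0 in WT and 6.86 and 3.08 in KO libraries, the widest gap of these lists, with 2 of 4 called lower. WT replicate 1 was the highest library in all 3 sums. Of 10 myeloid markers, 4 passed the filter and 0 were called, with a summed CPM of 14.7 and 9.33 in WT and 8.77 and 7.81 in KO libraries. Some stood high in WT replicate 1: Lyz2 had 77 and 23 counts in WT and 4 in each KO library, and S100a8 had 99 in WT replicate 1 and at most 3 elsewhere. The defining markers Csf1r and Cd14 had at most 6 and 2 counts in any library. Of 6 T cell markers tested, Cd3d, Cd3e and Cd3g rose (log2 fold changes of 0.86, 0.81 and 1.26 in that order). Cd247, Cd2 and Cd5 were not called. Summed CPM of 3 CD8 markers was 899 and 918 in WT and 1190 and 1254 in KO libraries, with 0 called. All 3 were above both WT libraries in both KO libraries, against 29.8% of all genes. For 3 CD4 markers the sum was 224 and 213 in WT and 249 and 261 in KO libraries, with 0 called.

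The members lie on 6 chromosomes of GRCm38, the build called mm10. Stat4, the member that passed the test, occupies 51987148 to 52107189 on chromosome 1 (gene ENSMUSG00000062939.11, plus strand). Its longest coding transcript, Stat4-201, has 24 exons. Stat5b (100780731 to 100850724, minus strand), Stat5a (100859351 to 100885169, plus strand) and Stat3 (100885098 to 100939540, minus strand) are neighbours on chromosome 11. The 2 Stat5 genes are separated by 8626 bases, and the ends of Stat5a and Stat3 overlap by 72 bases. Stat6 (127642986 to 127660957) and Stat2 (128270559 to 128292849) lie on chromosome 10, Jak1 on chromosome 4 (101152367 to 101265282), Jak2 on chromosome 19 (29251828 to 29313080) and Jak3 on chromosome 8 (71676296 to 71690575).

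Stat5a and Stat5b are closely related copies, and their sequences show how far their reads can be told apart. Of 2343 aligned coding bases, 90.7% were identical, and the longest identical run had 324 bases (positions 571 to 894 of both coding sequences, in exons). Its first 60 bases are shown first, read 5′ to 3′ from the GENCODE transcripts. The 60 coding bases before each stop codon follow, where the genes differ.
Shared run: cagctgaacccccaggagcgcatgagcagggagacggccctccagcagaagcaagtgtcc
Stat5a end: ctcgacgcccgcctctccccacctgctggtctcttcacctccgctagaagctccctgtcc
Stat5b end: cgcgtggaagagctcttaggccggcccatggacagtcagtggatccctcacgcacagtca
Of the 50-base windows of the Stat5a transcript, 16.4% also occurred in a transcript of another gene, against 11.8% for Stat5b. At 100 bases these shares were 6.99% and 5.18%. The 50-base share of Stat5a includes windows shared with Stat3, whose end overlaps that of Stat5a. Read length and the handling of multi-mapping reads were not given in the sources used here. The split between both Stat5 genes is therefore uncertain, by an amount that these shares do not measure exactly. For Stat4, 28.6% of 50-base windows also belong to Gm28177, a non-coding transcript that shares exons with Stat4 and runs past its 3′ end, but Gm28177 has no row in the count tables. For Jak3 the share was 8.94%, with Insl3, which has its own row.

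Upstream windows of the 9 genes were searched for the sequences that STAT proteins bind. The 250 bases before each start were read from RefSeq (GRCm38.p6), which gives 12 starts for the 9 members. The GAS element, bound by STAT dimers, was searched as TTCNNNGAA and the ISRE, bound by the complex of Stat2, as a pair of GAAA separated by 2 bases, both on either strand. No GAS and ISRE match overlapped in these windows. A GAS match was found at 0 of 12 member starts, against 7.01% of 32817 starts in the table. An ISRE match was found at 2 of 12, against 2.97% of all starts, at Stat2 and at the downstream start of Stat4. The windows of these 2 genes are printed 5′ to 3′ on the gene's strand, with the ISRE match in capitals. They are Stat2 (chr10:128270248-128270497, plus strand), Stat4 at its upstream start (chr1:51986898-51987147, plus strand) and Stat4 at its downstream start (chr1:52007990-52008239, plus strand, in an intron of Stat4-202 and just before the first exon of Stat4-201).
Stat2: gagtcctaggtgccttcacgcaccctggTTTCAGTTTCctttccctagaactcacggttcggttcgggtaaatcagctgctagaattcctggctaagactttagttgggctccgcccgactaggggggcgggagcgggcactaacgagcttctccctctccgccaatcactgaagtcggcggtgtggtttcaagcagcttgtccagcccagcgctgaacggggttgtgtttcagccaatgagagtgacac
Stat4 upstream start: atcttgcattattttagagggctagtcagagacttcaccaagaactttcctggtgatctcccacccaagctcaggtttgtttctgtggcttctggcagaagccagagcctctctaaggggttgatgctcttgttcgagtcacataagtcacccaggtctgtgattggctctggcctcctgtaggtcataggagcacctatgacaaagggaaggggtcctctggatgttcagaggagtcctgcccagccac
Stat4 downstream start: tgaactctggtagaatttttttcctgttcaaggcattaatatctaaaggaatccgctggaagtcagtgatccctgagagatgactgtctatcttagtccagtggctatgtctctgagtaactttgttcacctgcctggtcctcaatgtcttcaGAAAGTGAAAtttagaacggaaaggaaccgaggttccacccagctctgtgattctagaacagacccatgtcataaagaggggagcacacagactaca
The match lies 222 bases before the start in Stat2 and 97 bases before the downstream start in Stat4. A match describes the letters and does not show binding.

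Among the 9 members, Stat4 rose in KO libraries, by 1.77-fold, and the other 8 were not called. The comparison is between libraries labelled by the presence or the knockout of Mthfd2, a mitochondrial enzyme of folate metabolism. The test was edgeR's quasi-likelihood test with Benjamini-Hochberg adjustment over all 12752 genes, at an adjusted p under 0.05. It called 3.95% of all genes, 2.39% higher and 1.56% lower, so 1 call among 9 rests on a single gene near the threshold. At an unadjusted p under 0.05 it gave 3 of 9 members, against 25.5% of all genes. The median log2 fold change was 0.21 over the members and -0.0026 over all genes. Both KO libraries were above both WT libraries for 5 members (Stat3, Stat4, Stat5b, Jak1 and Jak3), against 29.8% of all genes. Both were below for 1 member (Stat5a), against 30.1%. Without overlap in either direction were thus 6 of 9 members, near the 59.9% of all genes, and this count says nothing particular about them.

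**Figure D1:**
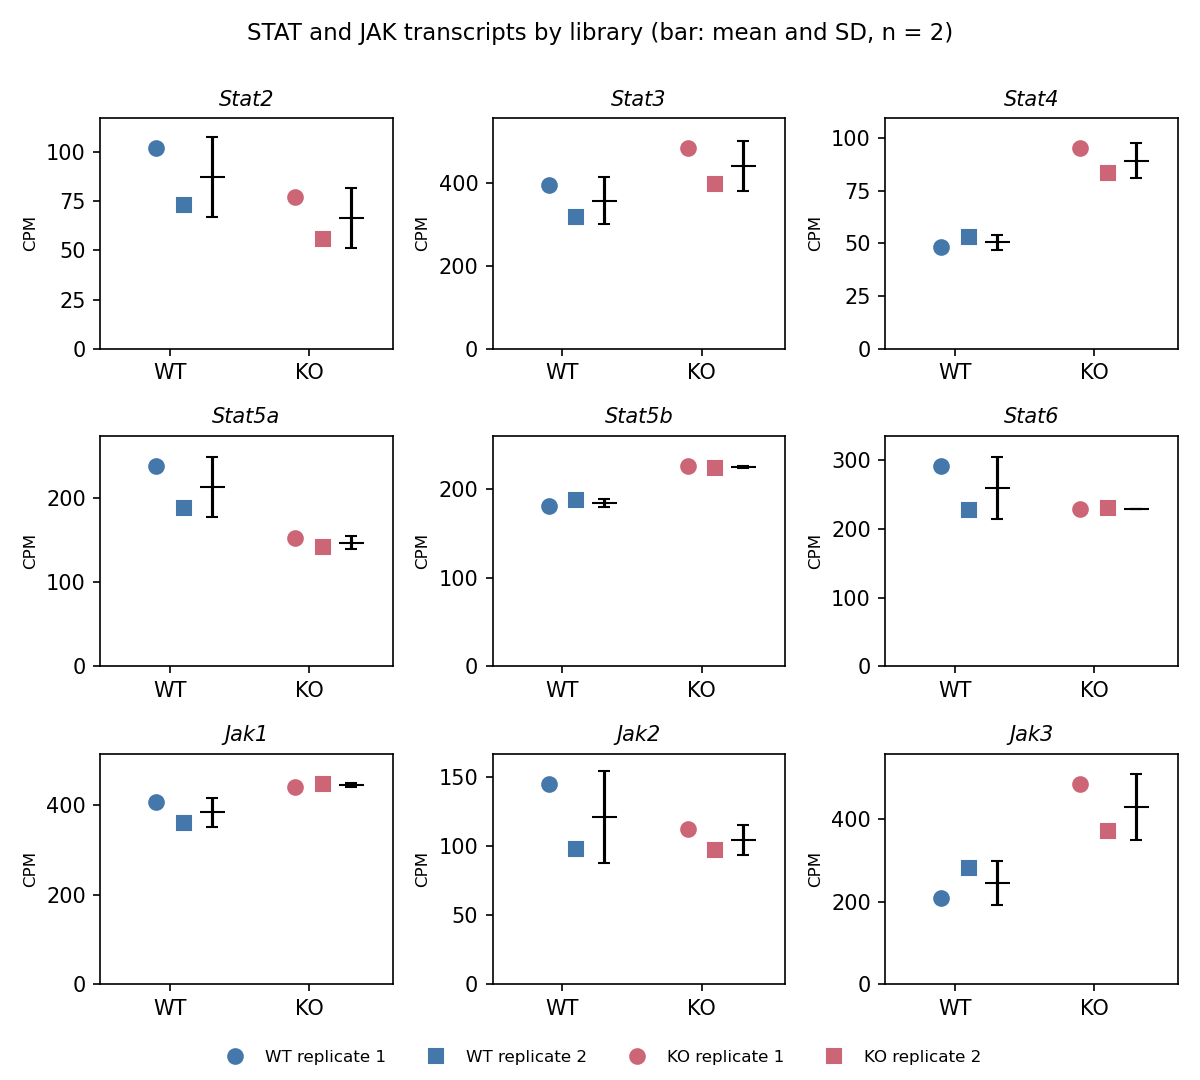
Level of each of the 9 transcripts in CPM (vertical axis, from 0) in the 2 WT (blue) and 2 KO (red) libraries, with circles for replicate 1, squares for replicate 2 and the bar giving mean and SD (n = 2). Stat4 stands at 48.0 and 53.1 CPM in WT and at 95.1 and 83.3 CPM in KO libraries, while Stat2, Stat6 and Jak2 overlap between the genotypes.

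Stat4 transmits the signal of interleukin-12 and drives interferon gamma production in Th1 cells. Its counts were 785 in each WT library, 1345 in KO replicate 1 and 1162 in KO replicate 2. On the CPM scale this was 48.0 and 53.1 against 95.1 and 83.3, with means of 50.5 ± 3.62 and 89.2 ± 8.34 (SD, n = 2 each). Both KO libraries lay well above both WT libraries, which differed little from each other. The log2 fold change was 0.82 ± 0.16 (SE, 95% interval 0.43 to 1.21, edgeR adjusted p = 0.0480). The call was lost with upper quartile factors (adjusted p = 0.0543), which called 2.66% of all genes, and with library size only (0.0550), which called 3.24%. Nor was Stat4 called without WT replicate 1 (log2 fold change 0.75, adjusted p = 0.0710), KO replicate 1 (0.73, adjusted p = 0.356) or KO replicate 2 (0.92, adjusted p = 0.204). Without either KO library edgeR called 0 genes at all (of 13276 and of 13407 tested), so those fits say nothing particular about Stat4.

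The rise of Stat4 was close in size to those of Cd3d and Cd3e. Of the other T cell markers tested, Cd3g rose more (1.26), while Cd247 (0.30), Cd2 (0.15) and Cd5 (-0.09) were not called. The ratio below is to the Cd3 genes only and depends on that choice. The summed CPM of Cd3d, Cd3e and Cd3g, the invariant chains of the T cell receptor, was 384 and 427 in WT and 807 and 760 in KO libraries. Stat4 amounted to 12.5% and 12.4% of that sum in WT and to 11.8% and 11% in KO libraries. This ratio, chosen after the values were seen, differed little between libraries, though both KO libraries were below both WT libraries. Of the other members, all except Jak3 were also lower in both KO libraries on this scale, those with higher CPM in KO libraries included. Stat5b went from 47.0% and 43.8% to 28.0% and 29.4%, Jak1 from 106% and 84.5% to 54.7% and 59.0%, and Stat3 from 103% and 74.5% to 60.1% and 52.4%. Cd247, the remaining chain of that complex, went from 48.2% and 49.9% of the same sum to 28.7% and 33.9%, so the chains did not move by equal amounts. In bulk samples a larger share of cells of a type and more RNA per cell cannot be told apart. The part of cell make-up in the values of the members was not tested.

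Jak3 is the kinase bound to the common gamma chain. Its level was 208 and 283 CPM in WT and 487 and 373 CPM in KO libraries, from between 3402 and 6883 counts. Both KO libraries were above both WT libraries, but the libraries of each genotype also lay apart, by 0.734 times in WT and 1.31 times in KO (replicate 1 over replicate 2). The log2 fold change was 0.81 ± 0.21 (95% interval 0.31 to 1.31), nearly that of Stat4, with an edgeR adjusted p of 0.0771. Jak3 was called by DESeq2 (adjusted p = 0.00537), which called 12.8% of all genes, and by edgeR with no low-count filter (0.0186), which called 7.73%. It was called as well without WT replicate 2 (1.05, adjusted p = 0.0107), where 19.2% of all genes were. Relative to the sum of the Cd3 genes, Jak3 stood at 54.1% and 66.3% in WT against 60.3% and 49.1% in KO, so the genotypes overlapped on that scale.

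Jak1, the partner of Jak3 at gamma chain receptors and a kinase of interferon receptors as well, was among the most abundant members. It stood at 407 and 361 CPM in WT and 441 and 448 CPM in KO libraries (0.21 ± 0.14, 95% interval -0.12 to 0.55, edgeR adjusted p = 0.387). Jak2, a kinase of the interleukin-12 and interferon gamma receptors, stood at 145 and 97.9 CPM in WT and 112 and 96.8 CPM in KO libraries. WT replicate 1 alone was high, and the genotypes overlapped (-0.22 ± 0.22, 95% interval -0.74 to 0.30, adjusted p = 0.572). Without that library the log2 fold change of Jak2 was 0.10.

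**Figure D2:**
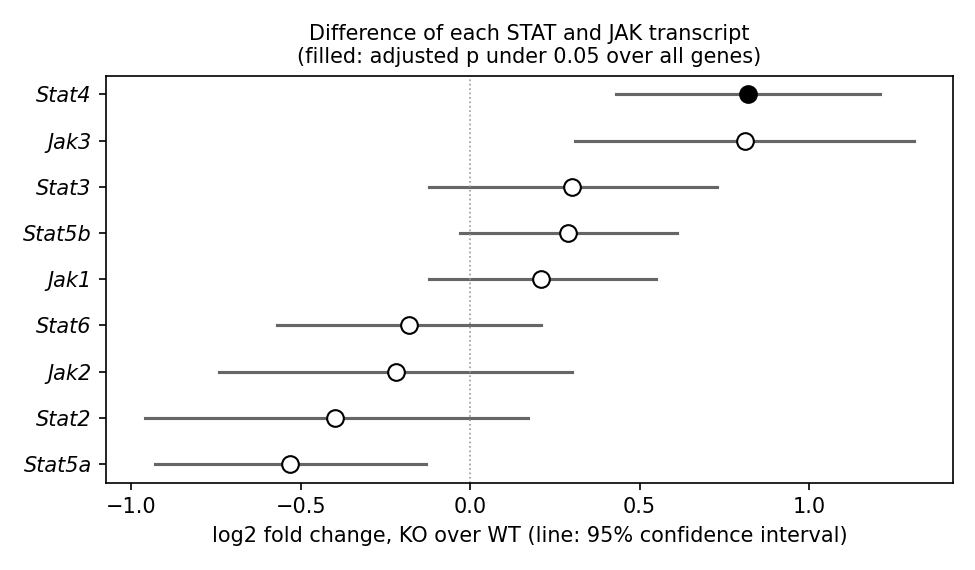
Log2 fold change of each member, KO over WT (horizontal axis), with its 95% confidence interval from the edgeR fit (line); a filled point marks an adjusted p under 0.05. Stat4 (0.82) and Jak3 (0.81) lie farthest right and Stat5a (-0.53) farthest left, and only the point of Stat4 is filled.

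The Stat5 genes differed in sign. Both transmit the signals of interleukin-2, interleukin-7 and interleukin-15 and support growth and survival of T cells. Stat5a stood at 238 and 188 CPM in WT and 153 and 142 CPM in KO libraries, with both KO libraries below both WT libraries. Its log2 fold change was -0.53 ± 0.17 (95% interval -0.93 to -0.13), and it missed the threshold (edgeR adjusted p = 0.114), except without WT replicate 2 (-0.69, adjusted p = 0.0222). Without WT replicate 1 it was -0.35. Stat5b stood at 181 and 187 CPM in WT and 226 and 224 CPM in KO libraries. The libraries of each genotype nearly coincided, and the log2 fold change was 0.29 ± 0.14 (95% interval -0.03 to 0.61, adjusted p = 0.232).

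The ratio of Stat5a to Stat5b in RPKM was 1.03 and 0.782 in WT against 0.525 and 0.494 in KO. Both KO ratios were below both WT ratios, with means of 0.904 ± 0.172 and 0.509 ± 0.0225 (SD, n = 2 each). An exact two-sided permutation test over the 4 libraries gave p = 0.333, the smallest that 2 against 2 allows. The sum of both genes was 419 and 375 CPM in WT and 378 and 366 CPM in KO libraries and overlapped between the genotypes. The B cell sum was lower in the same KO libraries (428 and 393 against 1191 and 721 CPM). The part of these cells, and of reads that both copies share, in the ratio was not tested.

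Stat3, which answers to interleukin-6, interleukin-10 and interleukin-21, was 397 and 318 CPM in WT and 485 and 398 CPM in KO libraries. The lower KO library barely exceeded the higher WT library (0.30 ± 0.18, 95% interval -0.12 to 0.73, edgeR adjusted p = 0.322). Stat6, the factor of interleukin-4 and interleukin-13, was 292 and 228 CPM in WT and 229 and 230 CPM in KO libraries. WT replicate 1 alone was high, and the difference (-0.18 ± 0.16, 95% interval -0.57 to 0.21, adjusted p = 0.532) became 0.01 without it. Stat2, which joins Irf9 in the complex that answers to type I interferon, had the lowest level per kilobase of the 9 in the mean of all libraries. It stood at 102 and 73.1 CPM in WT and 77.4 and 55.6 CPM in KO libraries (log2 fold change -0.40 ± 0.24, 95% interval -0.96 to 0.17, adjusted p = 0.335). The replicates of each genotype differed by 1.39 times, so the genotypes overlapped.

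Per kilobase of merged exons the members spanned a wide range without clear steps. Jak3, Jak1, Stat6 and Stat3 had mean levels of 63.1, 57.3, 55.6 and 42.0 RPKM over the 4 libraries. Stat5b and Stat5a followed at 36.9 and 25.3 RPKM, then Jak2 and Stat4 at 22.5 and 18.0 RPKM and Stat2 at 13 RPKM. The ranges over libraries of neighbours in this order overlapped, except that Stat6 (51.7 to 66.4 RPKM) lay above Stat3 (33.4 to 50.9 RPKM) in every library. These means pool both genotypes. Jak3 was below Jak1 and Stat6 in WT replicate 1 (38.8 against 56.4 and 66.4 RPKM) and led in the other libraries. In WT libraries Stat4 (12.4 and 13.7 RPKM) was about as low as Stat2 (17.2 and 12.3 RPKM). With the length of the longest transcript in place of merged exons, Stat2 kept its rank and each of the other 8 exchanged places with a neighbour, Stat6 and Stat3 included, so the order of neighbours is not settled.

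**Figure D3:**
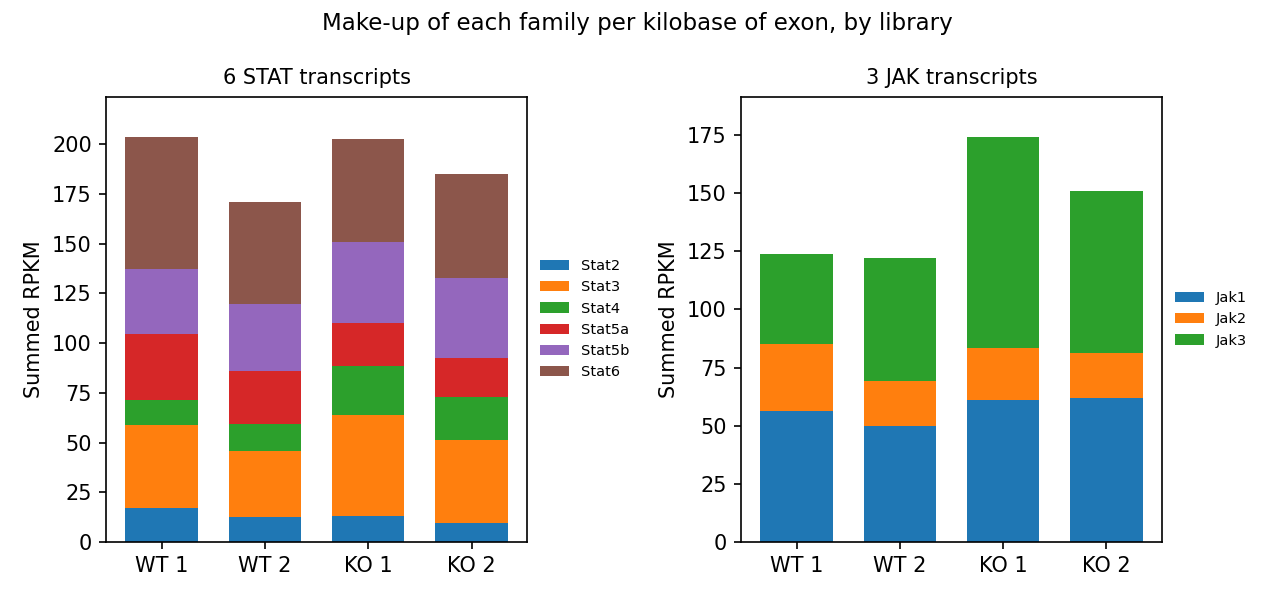
Stacked bars of RPKM (vertical axis, from 0) for the 6 STAT transcripts (left) and the 3 JAK transcripts (right) in each library. The STAT sum lies between 171 and 204 RPKM in every library, and the JAK sum is 124 and 122 RPKM in WT and 174 and 151 RPKM in KO libraries.

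Within the STAT sum, the share of Stat4 was 6.08% and 8.00% in WT and 12.1% and 11.6% in KO libraries. The share of Stat5a was 16.4% and 15.4% in WT and 10.6% and 10.8% in KO libraries. By merged exons Stat6 held the largest share in every library, between 25.7% and 32.6%, but by the longest transcript Stat3 ranked above it. Stat4 was 0.187 and 0.265 times Stat6 in WT and 0.472 and 0.413 times Stat6 in KO libraries on the RPKM scale. The STAT sum itself was 204 and 171 RPKM in WT against 203 and 185 RPKM in KO, an overlap (exact two-sided permutation p = 1.00). The JAK sum was 124 and 122 RPKM in WT and 174 and 151 RPKM in KO libraries (exact two-sided permutation p = 0.333, again the smallest possible). Jak3 held 31.3% and 43.2% of it in WT and 52.2% and 46.2% in KO libraries.

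**Figure D4:**
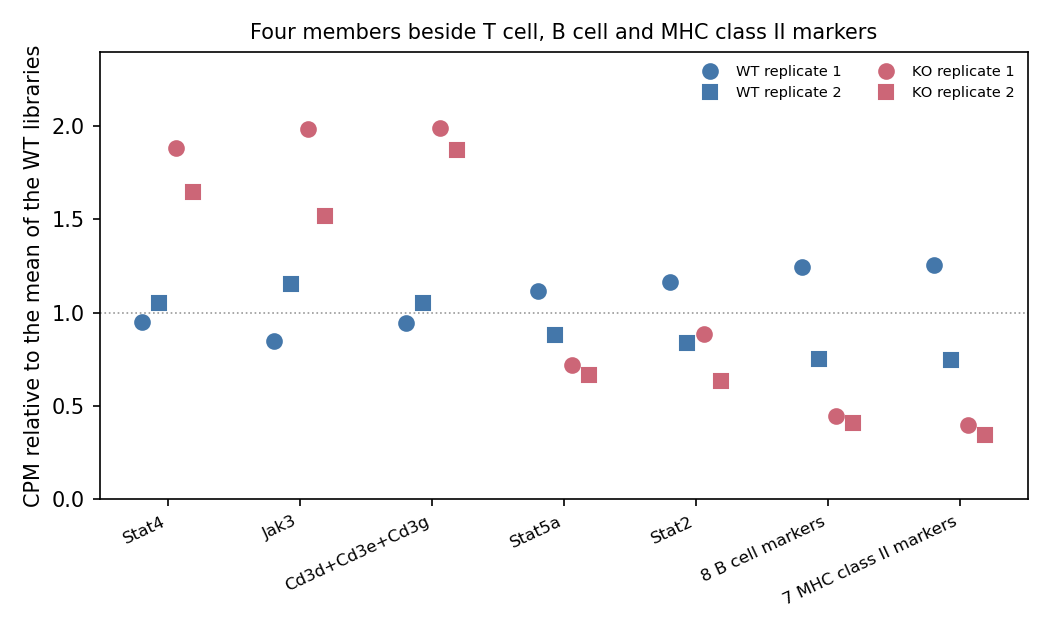
CPM in each library divided by the mean of the WT libraries (vertical axis, from 0) for Stat4, Jak3, Stat5a and Stat2 beside the sums of 3 Cd3 genes, 8 B cell markers and 7 MHC class II markers; colours and symbols mark genotype and replicate. In KO libraries Stat4, Jak3 and the Cd3 sum (807 and 760 CPM) lie above the WT libraries, and the B cell (428 and 393 CPM) and class II sums (1232 and 1068 CPM) lie below.

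By the likeness of their patterns, the genes nearest to Stat4 were Ppme1, Gm20275 and Zfp810, at Euclidean distances of 0.0673, 0.0675 and 0.0689 on centred log2 CPM over 4 libraries. With so few libraries many genes are close, and 237 lay within 0.25 of Stat4.

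Around the members, 91 genes of the pathway were grouped by role, of which 86 passed the filter. Of these 86, 1 rose and 11 fell, with a median log2 fold change of -0.22. Of all genes, 2.39% were called higher and 1.56% lower. These shares also apply to the counts of each list below, unless another fit is named. The lists were chosen with earlier results of these data known. Each call is described with its list. All of those that fell except Pim1 did so by over 2-fold. Without WT replicate 2, where 19.2% of all genes were called, 27 pathway genes were, and DESeq2, which called 12.8% of all genes, called 25. Without KO replicate 1 or KO replicate 2 edgeR called 0 pathway genes (31 and 27 at an unadjusted p under 0.05) and 0 of all genes, so none of the calls named here holds in those fits.

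Among 17 cytokine ligands tested, 4 fell and 0 rose (median -0.89). Ifng, the product of Th1 cells and of Stat4 signalling, stood at 215 and 280 CPM in WT and 48.2 and 40.8 CPM in KO libraries (-2.48, edgeR adjusted p = 0.0176). Il2, the growth factor that acts through Jak1, Jak3 and the Stat5 proteins, stood at 27.9 and 12.4 CPM in WT and 1.91 and 1.29 CPM in KO libraries. The others were Lif (-1.79) and Il22 (-3.69), ligands of receptors that signal through Stat3. Stat4 was thus higher in the same KO libraries in which Ifng was lower.

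Of 8 gamma chain receptor genes, Il15ra fell (60.7 and 43.3 CPM in WT, 23.6 and 23.4 CPM in KO, edgeR adjusted p = 0.0408), and 0 rose (median -0.42). Il15ra was no longer called without WT replicate 1 (-0.88, adjusted p = 0.0571). DESeq2 called 1 higher and 3 lower in this list, limma-voom 1 higher and 1 lower, and edgeR without WT replicate 2 called 2 higher and 3 lower. The most abundant were the interleukin-2 receptor chains Il2rb and Il2ra, which lay on opposite sides of 0 without passing the test. Il2rb stood at 465 and 749 CPM in WT and 1323 and 1236 CPM in KO libraries (log2 fold change 1.08, adjusted p = 0.0541). Il2ra stood at 949 and 1168 CPM in WT and 673 and 564 CPM in KO libraries (log2 fold change -0.78, adjusted p = 0.0568).

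Of 12 other JAK-coupled receptor genes, 1 rose and 1 fell (median 0.23), and these encode the chains of the interferon gamma receptor. Ifngr1, the chain that binds the cytokine and Jak1, stood at 43.6 and 43.7 CPM in WT and 101 and 75.1 CPM in KO libraries (1.01, edgeR adjusted p = 0.0438). Ifngr2, the chain that brings Jak2, stood at 47.0 and 32.2 CPM in WT and 16.6 and 15.2 CPM in KO libraries (log2 fold change -1.32, adjusted p = 0.0408). Without WT replicate 1 neither was called, at log2 fold changes of 1.02 for Ifngr1 (adjusted p = 0.0555) and -1.01 for Ifngr2 (0.0564). Ifngr1 also missed the threshold with upper quartile factors (1.01, adjusted p = 0.0530) and library size only (0.97, adjusted p = 0.0539), with its fold nearly unchanged.

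Of 17 feedback inhibitors and phosphatases, 2 fell and 0 rose (median -0.03). These were Cish (153 and 150 CPM in WT, 60.7 and 49.5 CPM in KO libraries, -1.46) and Socs1 (242 and 200 CPM in WT, 95.8 and 87.7 CPM in KO libraries, -1.27), which STAT proteins induce and which restrain the receptors and JAK kinases in turn. Both calls held without either WT library but not without KO replicate 1 (adjusted p = 0.293 and 0.297) or KO replicate 2 (0.148 and 0.161), where 0 of all genes were called. Of 7 partners and coactivators, edgeR and DESeq2 each called 0, and 0 had an unadjusted p under 0.05 in edgeR and 1 in DESeq2. Ep300 (0.32) and Crebbp (-0.25), acetyltransferases that STAT proteins recruit, were the most abundant of these. Irf9, the partner of Stat2, is named here after its values were seen. It stood at 107 and 56.1 CPM in WT and 56.0 and 38.9 CPM in KO libraries (-0.78, edgeR adjusted p = 0.197).

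Genes known as targets of single STAT factors were counted separately, and some, Lif and Cish among them, are in the lists above too. These lists were also chosen with earlier results of these data known. The shares of all genes printed beside them are therefore no test of enrichment. Of 8 targets of the Stat5 proteins, 4 fell and 0 rose (median -0.96), against 1.56% of all genes called lower. In 7 of 8 both KO libraries lay below both WT libraries, against 30.1% of all genes. Those that fell were Lif, Cish, the kinase Pim1 (391 and 324 CPM in WT, 204 and 172 CPM in KO libraries) and the cyclin Ccnd2 (1143 and 863 CPM in WT, 401 and 530 CPM in KO libraries). Pim1 and Ccnd2 missed the threshold without WT replicate 1 (adjusted p = 0.0609 and 0.0614). B cells express Pim1 and Ccnd2 as well, and the B cell sum was lower in the same KO libraries (428 and 393 against 1191 and 721 CPM). Its part in these values was not tested.

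Of 7 targets of Stat4, 1 fell, Ifng, and 0 rose (median -0.46). At an unadjusted p under 0.05, 3 were lower, namely Ifng, Tbx21 (-0.49) and Hlx (-1.52, between 12 and 82 counts). At that threshold 2 were higher, namely Il18r1 (0.76) and Il18rap (0.78), chains of the interleukin-18 receptor. Tbx21, Hlx and these chains are named here after their values were seen. DESeq2 called 1 higher and 1 lower, and edgeR without WT replicate 2 called 2 higher and 1 lower. Furin, a protease that Stat4 induces, stood at 270 and 292 CPM in WT and 260 and 148 CPM in KO libraries (edgeR adjusted p = 0.307). Of 10 targets of the Stat2 complex, 1 fell, Isg15 (19.0 and 8.86 CPM in WT, 2.05 and 1.72 CPM in KO libraries), and 0 rose, with a median of -2.33. At an unadjusted p under 0.05, 8 were lower in edgeR, against 1624 of all 12752 genes. DESeq2 called 6 lower, against 6.18% of all genes, and edgeR without WT replicate 2 called 8 lower, against 8.45%. The limma-voom fit called 0 (5 at an unadjusted p under 0.05), with Isg15 at an adjusted p of 0.0535. Bst2, a membrane protein that tethers viruses, had a log2 fold change of -0.96 (edgeR adjusted p = 0.0539) and Ifit2 one of 0.21. Summed CPM of the 10 was 317 in WT replicate 1, 170 in WT replicate 2, and 119 and 113 in KO libraries. The erythroid sum had the same order of libraries (124, 32.0, 6.86 and 3.08 CPM), as had the B cell sum, and their part was not tested. Of 7 targets of Stat3 (median 0.13) and 3 tested of Stat6 (median -0.10), edgeR and DESeq2 called 0, with 0 at an unadjusted p under 0.05 in edgeR. Batf (0.13) and Bcl3 (0.03) were the most abundant of the first list, and Il4ra (-0.10) and Gata3 (0.54) of the second.

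**Figure D5:**
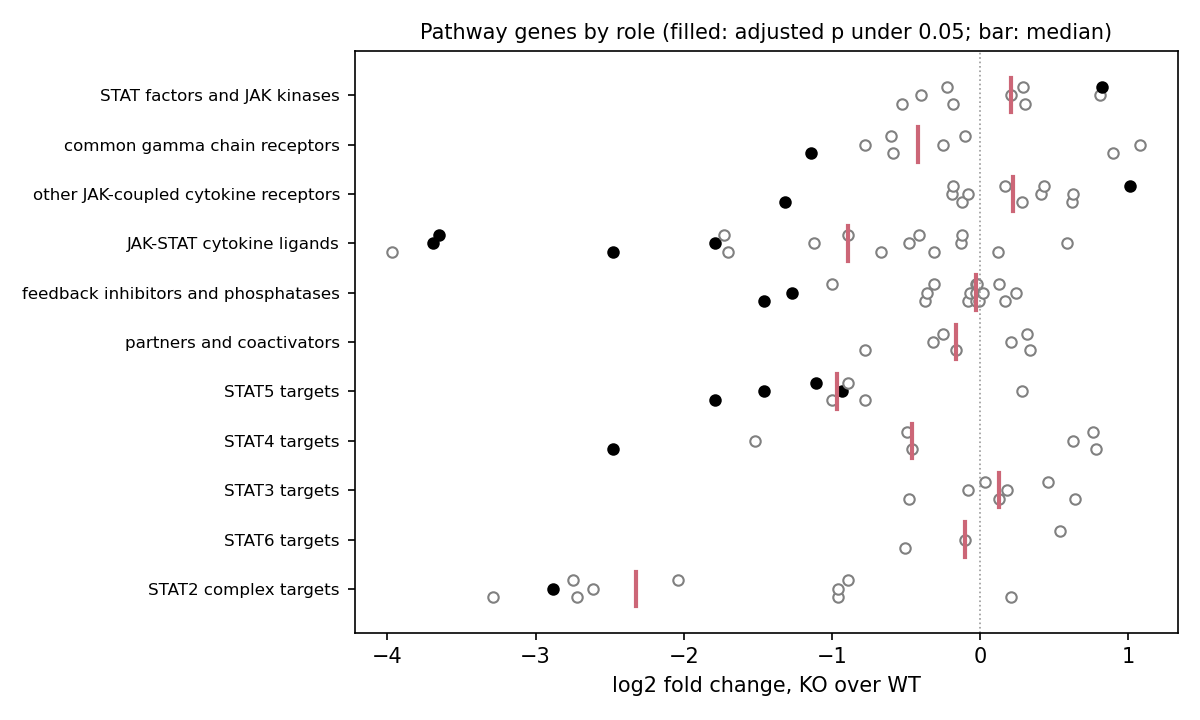
Log2 fold change, KO over WT (horizontal axis), of each tested gene of the 9 members and of the 10 pathway lists (rows); filled points have an adjusted p under 0.05 and the red bar is the median. The members lie between -0.53 and 0.82, while the cytokine ligands reach -3.97 and the targets of the Stat2 complex have a median of -2.33. The lowest ligand is Il9, which was not called and had at most 40 counts in any library.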

How the data were processed

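Total RNA of 4 libraries was depleted of ribosomal RNA before sequencing, per the labels' protocols. The authors deposited raw read counts per gene symbol, 1 table per library. Per the submitters' processing notes, the tools were DESeq2 1.30.1, Subread 2.0.1, featureCounts and R 4.0.4 and the build mm10; aligner, annotation, strand and multi-mapping settings were not given in the sources used here. Genes were kept by filterByExpr (minimum count 10, total 15), scaled by TMM and tested, KO against WT with no covariate, by edgeR 4.0.16 in R 4.3.3, with Benjamini-Hochberg adjustment over all genes. Replicates differed by more than counting error (chi-square per degree of freedom 40.3 in WT and 16.1 in KO). RPKM and positions used GENCODE M21 (GRCm38). Alternatives were DESeq2 1.42.0, limma-voom 3.58.1, other scalings, no filter, each library left out and a replicate block.

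The members and lists were chosen with earlier results of these data known. Named genes were all members, up to 4 called genes per list by p, the 2 most abundant where fewer than 2 were called, and the 3 genes nearest to each called member.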

Additional observations from a re-analysis of the deposited data

How the results depend on the processing

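Of the 9 members, edgeR called 1. DESeq2 called 2 and the fit with no low-count filter 2 (Stat4 and Jak3), upper quartile factors 0 and library size only 0 (3 at an unadjusted p under 0.05 in both). The shares of all genes called were 12.8%, 7.73%, 2.66% and 3.24% in that order, against 3.95% in the main fit. Leaving out each library in turn gave between 0 and 3, with 0 without WT replicate 1 (3 at an unadjusted p under 0.05), without KO replicate 1 and without KO replicate 2 (2 each), and 3 without WT replicate 2 (Stat4, Stat5a and Jak3). Of all genes these fits called 3.15% without WT replicate 1, 19.2% without WT replicate 2 and 0% without either KO library, against 3.95% with all libraries. The lone library is there assumed to vary like the other genotype. Over all alternatives Stat4 ranged from 0.73 to 0.92 and kept its call in 6 of 11. Without WT replicate 1 the sign turned for Stat6 and Jak2, neither of them called in any fit. Leaving out a library took Stat6 from -0.34 to 0.01 and Jak2 from -0.47 to 0.10. Of the pathway genes, 12 were called, 25 by DESeq2, 24 with no low-count filter and between 0 and 27 when a library was left out. With the longest transcript as length, 1 of 9 members kept its rank.

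The replicate number as a replicate block gave 1 member (Stat4, adjusted p = 0.0429) and 19 pathway genes, with 6.97% of all genes called. Same-numbered libraries did not deviate together (correlation 0.0397 over 12752 genes), so the numbers are not taken to pair them.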
